A study of Mus musculus with 20 samples.

Results

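The genes of corticosteroid reception, 6 in number, were followed through 20 RNA-seq libraries of the mouse BNST (bed nucleus of the stria terminalis), a forebrain region that lies between the amygdala and the hypothalamus. They are 6 of the 19214 genes in the count tables and were taken by symbol: Nr3c1 and Nr3c2, the receptors; Fkbp5, Fkbp4 and Ptges3, co-chaperones of the receptors; and Hsd11b1, an enzyme that makes receptor ligand. The libraries form 4 groups of 5: susceptible males, control males, susceptible females and control females. Susceptible mice come from a model of anxiety in which chronic restraint stress is given by holding each animal, time after time, in a narrow space. The sources used here do not give the strain, the age, how susceptibility was scored or the time between the last restraint and dissection, and they name no allele or drug for any group. Whether each library is its own animal is not stated in the labels, so a p-value here is about the spread among libraries, part of which may be technical.

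Corticosterone, the main glucocorticoid of mice, acts through a pair of nuclear receptors. The mineralocorticoid receptor (Nr3c2) binds it with high affinity and is largely occupied at resting hormone levels, whereas the glucocorticoid receptor (Nr3c1) binds it less tightly and is engaged as hormone climbs with the daily peak or with stress. Both wait for ligand in a complex with the chaperone HSP90, where the small co-chaperone p23 (Ptges3) stabilises the mature complex. FKBP51 (Fkbp5) in that complex lowers the affinity for hormone and holds back entry into the nucleus, FKBP52 (Fkbp4) takes its place on the way to the nucleus, and Fkbp5 is itself a target gene of the activated receptor, which closes a short feedback loop. The enzyme 11β-hydroxysteroid dehydrogenase type 1 (Hsd11b1) regenerates active corticosterone from its inert 11-keto form inside the cell.

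The sequences around the transcription start are shown for 4 of these genes. Fkbp5 and Hsd11b1 differed most between the sexes and between libraries, and Nr3c2 was, after Fkbp5 and Hsd11b1, the most variable of the 6. Fkbp4 had Stip1 and Hsp90aa1, genes of the HSP90 chaperone system, among the 5 genes of most similar pattern, of which Syngr3 was the closest. Each sequence runs from 250 bases before to 50 bases after the RefSeq start (GRCm38.p6), 5′ to 3′ on the gene's own strand. Capitals mark a CCAAT box on either strand or the heat shock element pair GAANNTTC.
Fkbp5, chr17:28486100-28486399, minus strand: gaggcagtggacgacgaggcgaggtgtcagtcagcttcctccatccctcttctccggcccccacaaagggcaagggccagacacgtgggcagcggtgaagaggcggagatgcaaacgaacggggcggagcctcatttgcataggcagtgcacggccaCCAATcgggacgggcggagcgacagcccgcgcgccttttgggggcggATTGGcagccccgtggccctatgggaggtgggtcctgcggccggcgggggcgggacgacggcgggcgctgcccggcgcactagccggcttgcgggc
Hsd11b1, chr1:193242311-193242610, minus strand: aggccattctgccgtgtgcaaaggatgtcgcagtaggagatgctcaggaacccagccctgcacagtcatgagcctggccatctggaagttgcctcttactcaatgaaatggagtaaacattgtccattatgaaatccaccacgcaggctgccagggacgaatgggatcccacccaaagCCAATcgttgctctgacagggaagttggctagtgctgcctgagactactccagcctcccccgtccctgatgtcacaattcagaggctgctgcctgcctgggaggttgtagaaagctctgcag
Fkbp4, chr6:128438607-128438906, minus strand: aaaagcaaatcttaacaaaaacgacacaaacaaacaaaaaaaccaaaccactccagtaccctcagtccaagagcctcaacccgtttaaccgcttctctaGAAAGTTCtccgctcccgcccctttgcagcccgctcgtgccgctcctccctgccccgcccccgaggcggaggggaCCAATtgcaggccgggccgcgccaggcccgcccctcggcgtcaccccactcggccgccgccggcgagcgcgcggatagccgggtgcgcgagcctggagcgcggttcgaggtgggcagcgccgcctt
Nr3c2, chr8:76902080-76902379, plus strand: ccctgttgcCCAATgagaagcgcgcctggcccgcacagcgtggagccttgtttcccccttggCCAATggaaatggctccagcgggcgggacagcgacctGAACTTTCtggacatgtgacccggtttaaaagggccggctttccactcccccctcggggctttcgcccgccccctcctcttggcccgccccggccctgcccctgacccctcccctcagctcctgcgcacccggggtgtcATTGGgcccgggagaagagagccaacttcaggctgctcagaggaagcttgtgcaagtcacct

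In Fkbp5, Hsd11b1 and Nr3c2 the RefSeq start lies inside the longer GENCODE gene span, so these windows are not the outermost starts. Promoters of 5 of the 6 genes were searched on both strands, with Ptges3 as the fifth and Nr3c1 not analysed here. None of the 5 windows held the glucocorticoid response element, AGAACA followed after 3 bases by TGTTCT, or its arm AGAACA alone, which occur in 0.00913% and 19.0% of 32851 RefSeq promoter windows of the same length. The pair GAANNTTC, a palindrome that reads the same on both strands, was found at position -151 in Fkbp4 as GAAAGTTC and at position -151 in Nr3c2 as GAACTTTC, and occurs in 7.86% of windows. The CCAAT box, present in 37.4% of windows, began at -93 and -46 in Fkbp5, at -72 in Hsd11b1, at -76 in Fkbp4 and at -241, -188 and -12 in Nr3c2, and was not matched in Ptges3. The longer heat shock element of 3 units, and the pair with its units in tail-to-tail order, were also searched. Neither was matched in any of the 5 windows, Fkbp4 and Nr3c2 included. They occur in 0.603% and 8.52% of windows. A match of letters is a description of the window and not evidence of binding.

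Gene positions come from GENCODE on GRCm38. Nr3c1 spans chromosome 18, 39410545 to 39519421, and Nr3c2 spans chromosome 8, 76899442 to 77245012. Fkbp5 spans chromosome 17, 28399094 to 28517527, Fkbp4 chromosome 6, 128429735 to 128438677, and Ptges3 chromosome 10, 128058954 to 128077272. Hsd11b1 spans chromosome 1, 193221634 to 193264075. All 6 are protein-coding. An exon of Nr3c2 overlaps Gm10649, a gene that the tables do not list, and the exons of the other 5 overlap no other gene.

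All 6 genes were detected in all 20 libraries and passed the filter on low counts, which kept 14884 genes. The smallest count of any of them in a library was 60 for Hsd11b1, against at least 474 for Fkbp5, 592 for Nr3c2, 1025 for Ptges3, 1405 for Nr3c1 and 1501 for Fkbp4. Library totals ranged from 14637636 to 16120613 in susceptible males, 14758273 to 17862840 in control males, 14863126 to 17621275 in susceptible females and 15045809 to 17225841 in control females. Markers of subpallial GABA neurons, which the BNST shares with the striatum, were present in all libraries, with 1512 to 2796 CPM, counts scaled to library size, summed over 13 genes. The sum over 14 striatal genes ranged from 761 to 7477 CPM. Markers of neighbouring structures varied between libraries: Ttr, a choroid plexus gene, exceeded 100 CPM in 7 libraries, and Pmch, which lateral hypothalamic neurons express, exceeded 1 CPM in 5, of which 3 were control females. In such bulk tissue, fewer cells of a type and less RNA per cell cannot be told apart.

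Per unit of exon length, the co-chaperones Fkbp4 and Ptges3 stood far above both receptors, and the means of the receptors stood above those of Fkbp5 and the ligand-making enzyme. Levels are given here as CPM per kilobase of exon, as mean ± SD over 20 libraries. Fkbp4 was the highest at 49.2 ± 8.61, followed by Ptges3 at 42.0 ± 6.55. Nr3c1 followed at 14.9 ± 1.66 and Nr3c2 at 8.08 ± 1.84. Fkbp5 stood at 4.94 ± 2.51 and Hsd11b1 was the lowest at 1.86 ± 0.814.

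The order was not equally firm at each step. Ptges3 exceeded Nr3c1 in all 20 libraries, with a lowest Ptges3 level of 30.1 and a highest Nr3c1 level of 18.01 CPM per kilobase, and Nr3c1 exceeded Nr3c2 in all 20, with 12.1 as its lowest and 11.2 as the highest of Nr3c2. Fkbp4 exceeded Ptges3 in 18 of 20 libraries, and their means differed by less than the SD of Fkbp4, so these neighbours in the order were not separated by their spread. Nr3c2 exceeded Fkbp5 in 18 of 20 libraries and Fkbp5 exceeded Hsd11b1 in 18 of 20, and in both cases the ranges overlapped.

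**Figure D1:**
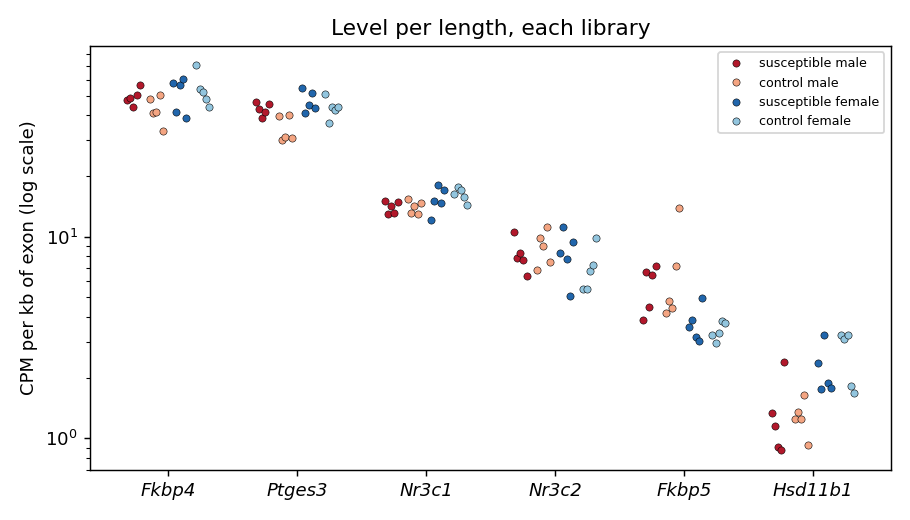
Level of each of the 6 genes in CPM per kilobase of exon (log scale), 1 point per library, coloured by group. Fkbp4 and Ptges3 lie highest and overlap, the Nr3c1 points all lie above those of Nr3c2 in the same library, and the highest Fkbp5 point is control male 5 at 13.9.

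The genes also differed in how much they varied. The coefficient of variation over 20 libraries was 11.1% for Nr3c1, 15.6% for Ptges3, 17.5% for Fkbp4 and 22.8% for Nr3c2, against 43.7% for Hsd11b1 and 50.8% for Fkbp5. Genes within a 2-fold range of the mean CPM of Fkbp5 had a median coefficient of 10.7%, and Fkbp5 exceeded 99.0% of these 5155 genes. Hsd11b1 exceeded 92.6% of the 3080 genes within that range of its own level, whose median was 17.9%. The rank of Fkbp5 above Hsd11b1 rested on control male 5. Without that library, left out after its value was seen, the coefficient was 31.2% for Fkbp5, below the 42.1% of Hsd11b1, and 11.4% for Nr3c1, still the smallest of the 6. Within groups Fkbp5 varied less than Hsd11b1 in 3 of 4, with 25.6% against 47.0% in susceptible males, 20.4% against 28.7% in susceptible females and 10.3% against 30.5% in control females, and more in control males, with 59.4% against 20.2%.

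**Figure D2:**
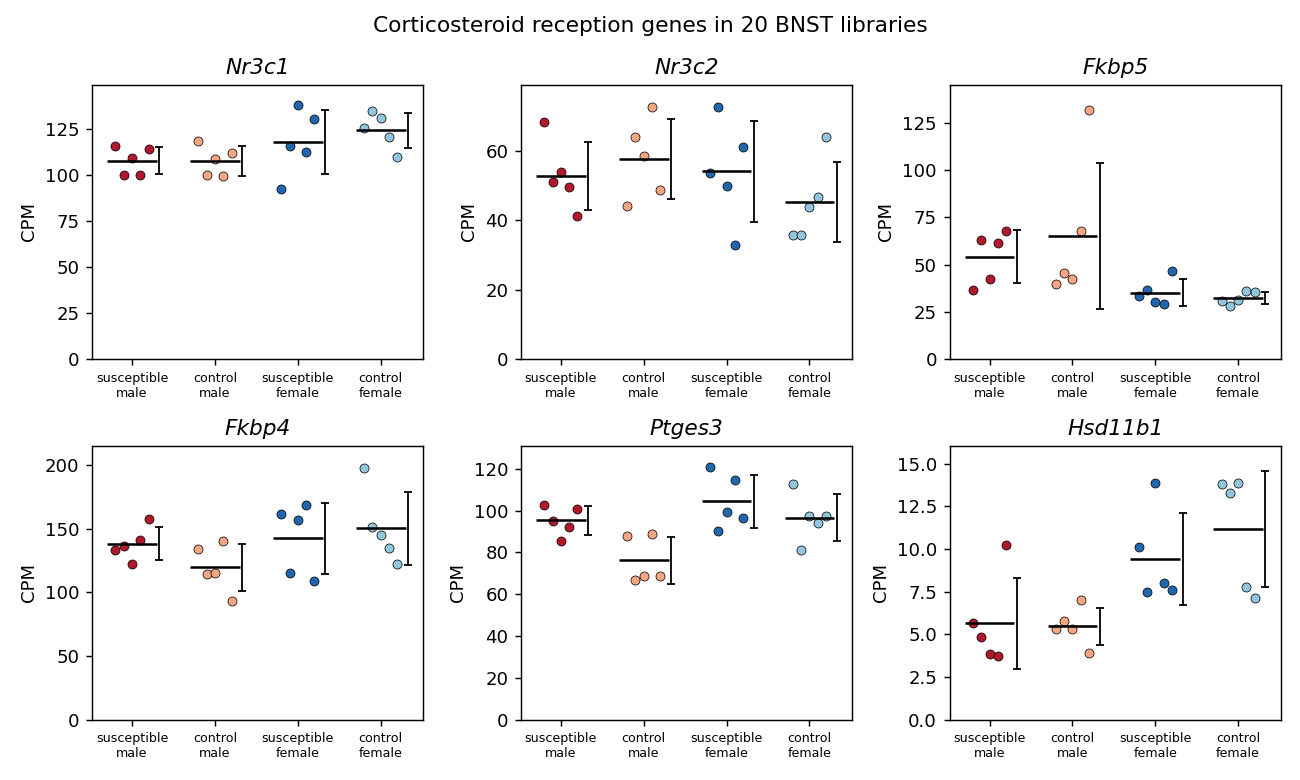
CPM of each gene in each library, with the group mean (line) and SD (bar), n = 5 libraries per group. The receptor and co-chaperone points of susceptible and control mice overlap within each sex, control male 5 stands apart for Fkbp5 at 132 CPM, and female libraries lie above most male libraries for Hsd11b1.

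Susceptible mice were compared with control mice of the same sex, the question being which transcripts respond to chronic restraint. In the receptors, no difference passed the test in either sex. Nr3c1 in replicates 1 to 5 was 92.7, 116, 138, 113 and 130.3 CPM in susceptible females and 126, 135, 131, 121 and 110.1 CPM in control females. In susceptible males it was 116, 100.04, 109, 100.12 and 114 CPM, against 118, 100.17, 109, 99.3 and 112 CPM in control males. The male groups were almost superimposed, and the female groups overlapped with the widest range in susceptible females. For Nr3c1 the log2 fold change was -0.08 ± 0.09 in females (edgeR adjusted p = 0.843; 95% interval -0.26 to 0.11) and 0.0023 ± 0.09 in males (edgeR adjusted p = 0.995; interval -0.19 to 0.19). Expressed as folds, these intervals run from 0.833 to 1.08 in females and from 0.880 to 1.14 in males.

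Nr3c2 in replicates 1 to 5 was 53.5, 72.4, 49.9, 32.96 and 61.1 CPM in susceptible females, against 35.6, 35.7, 43.8, 46.7 and 63.9 CPM in control females. In susceptible males it was 68.2, 50.9, 53.9, 49.5 and 41.1 CPM, against 44.1, 64.0, 58.5, 72.5 and 48.6 CPM in control males. The groups overlapped in both sexes, and the lowest of the 20 libraries was susceptible female 4. Nr3c2 had a log2 fold change of 0.26 ± 0.20 in females (edgeR adjusted p = 0.788; 95% interval -0.16 to 0.67) and -0.13 ± 0.20 in males (edgeR adjusted p = 0.855; interval -0.54 to 0.29).

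Fkbp5, the glucocorticoid-induced inhibitor of the receptor, was 33.6, 36.6, 30.0, 28.9 and 46.8 CPM in susceptible females, against 30.8, 28.1, 31.4, 36.1 and 35.3 CPM in control females. In susceptible males it was 36.4, 63.1, 42.5, 61.2 and 68.0 CPM, against 39.5, 45.4, 42.1, 67.5 and 132 CPM in control males. Control male 5 held the highest value of the series, and the remaining male libraries of both groups covered a common range. The log2 fold change was 0.12 ± 0.28 in females (edgeR adjusted p = 0.921; 95% interval -0.46 to 0.70) and -0.27 ± 0.27 in males (edgeR adjusted p = 0.774; interval -0.84 to 0.30). Without control male 5 the male estimate was 0.16, of the opposite sign.

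Fkbp4, the co-chaperone that carries the receptor towards the nucleus, was 162, 116, 157, 169 and 109 CPM in susceptible females, against 198, 152, 145, 135 and 122 CPM in control females. In susceptible males it was 133, 136, 122, 141 and 158 CPM, against 134, 114, 115, 141 and 93.6 CPM in control males. Both pairs of groups overlapped. Fkbp4 had a log2 fold change of -0.08 ± 0.14 in females (edgeR adjusted p = 0.899; 95% interval -0.37 to 0.22) and 0.21 ± 0.14 in males (edgeR adjusted p = 0.660; interval -0.09 to 0.50).

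Ptges3, the p23 gene, gave the smallest stress p of the 6. In susceptible males it was 103, 95.2, 85.4, 92.2 and 101 CPM, against 87.9, 66.7, 68.9, 88.7 and 68.7 CPM in control males. Of the 5 control males, 3 lay below all susceptible males, and the other 2 lay inside the lower end of the susceptible range. The log2 fold change in males was 0.32 ± 0.10, a fold of 1.25 with a 95% interval of 1.08 to 1.45 and an unadjusted p of 0.00540, which did not pass after adjustment over all genes (edgeR adjusted p = 0.405). limma voom with quality weights gave 0.37 with an adjusted p of 0.0252, while the DESeq2 Wald test gave 0.33 with an adjusted p of 0.144, so the call depended on the tool. In susceptible females it was 121, 90.4, 99.3, 115 and 96.7 CPM, against 113, 81.4, 97.4, 94.1 and 97.2 CPM in control females, a log2 fold change of 0.11 ± 0.10 (edgeR adjusted p = 0.816). The mean of both estimates was 0.22 ± 0.07 (edgeR adjusted p = 0.577).

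Hsd11b1, the corticosterone-regenerating enzyme, was 10.1, 7.46, 13.8, 8.02 and 7.57 CPM in susceptible females, against 13.8, 13.3, 13.9, 7.75 and 7.14 CPM in control females. In susceptible males it was 5.67, 4.87, 3.86, 3.71 and 10.2 CPM, against 5.31, 5.77, 5.31, 6.999 and 3.93 CPM in control males. Control females fell into 3 high libraries, which are the 3 with Pmch above 1 CPM, and 2 low ones, and susceptible male 5, which also exceeded 1 CPM of Pmch, stood above the other males. Susceptible females did not follow this split. Susceptible female 3, at 13.8 CPM of Hsd11b1, had 0.241 CPM of Pmch, and susceptible female 4, at 8.02 CPM, had 8.35 CPM. The correlation of Hsd11b1 with hypothalamic peptide genes over 20 libraries did not pass (r = 0.50, permutation adjusted p = 0.0767), with 0.42 in males and 0.55 in females. The log2 fold change was -0.25 ± 0.27 in females (edgeR adjusted p = 0.831; 95% interval -0.81 to 0.31) and 0.05 ± 0.28 in males (edgeR adjusted p = 0.965; interval -0.53 to 0.63). Without the libraries over 1 CPM of Pmch the estimates were 0.39 in females and -0.26 in males, both of the opposite sign, and neither passed the test.

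None of the 6 genes passed the threshold with stress in either sex, and none separated the groups completely. With edgeR, 0% of 14884 genes were called in females and 0% in males, so their count equals the background. At an unadjusted p under 0.05 stood 871 genes (5.85%) in females and 1439 (9.67%) in males. In females, DESeq2 and limma voom also called 0 genes. In males, DESeq2 called 13 genes and limma voom called 671, of which Ptges3 was the only one of the 6. The groups did not overlap in 0.457% of all genes in females and in 2.44% in males (1.44% higher and 0.994% lower).

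The stress estimate in females minus that in males was -0.08 ± 0.13 for Nr3c1, 0.39 ± 0.28 for Nr3c2 and 0.39 ± 0.39 for Fkbp5. It was -0.29 ± 0.20 for Fkbp4, -0.21 ± 0.15 for Ptges3 and -0.30 ± 0.38 for Hsd11b1. None of these differences passed (edgeR adjusted p from 0.626 to 0.833; 0% of all genes called, 1230 genes at an unadjusted p under 0.05, and 0 genes called by DESeq2 or limma voom). A response that differs between the sexes was therefore not detectable for these genes, with 95% intervals that reached 0.97 for Nr3c2 and 1.20 for Fkbp5 on the log2 scale.

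**Figure D3:**
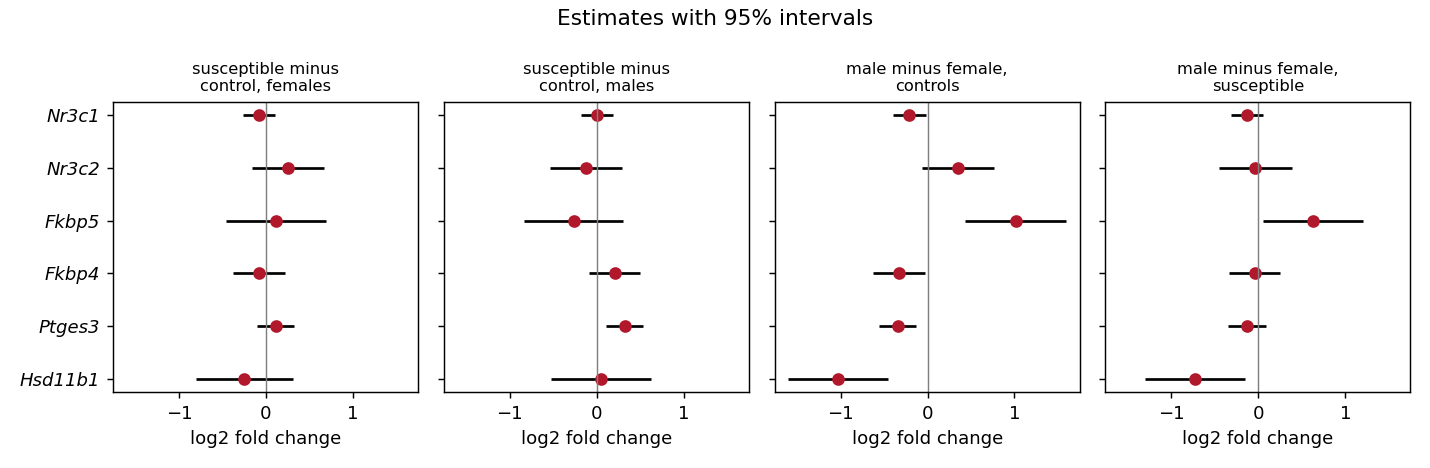
Log2 fold change of each gene with its 95% interval from the edgeR fit, susceptible minus control in females and in males, then male minus female in control and in susceptible mice. The intervals of both stress comparisons include 0 for all genes but Ptges3 in males, and Fkbp5 and Hsd11b1 lie farthest from 0, on opposite sides, in control mice.

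Males were compared with females within each condition. Among control mice, Fkbp5 and Hsd11b1 separated the sexes completely and in opposite directions. All 5 control males, at 39.5 to 132 CPM of Fkbp5, lay above all 5 control females, at 28.1 to 36.1 CPM. For Hsd11b1 all 5 control males, at 3.93 to 6.999 CPM, lay below all 5 control females, at 7.14 to 13.9 CPM, although the nearest values of the groups were close. Complete separation occurred in 3.89% of all genes in this comparison, 2.32% with males higher and 1.57% with males lower.

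Neither gene passed after adjustment over all genes. The log2 fold change of Fkbp5 in control males over control females was 1.01 ± 0.28 (fold 2.02, 95% interval 1.35 to 3.01, unadjusted p = 0.00166, edgeR adjusted p = 0.0908). For Hsd11b1 it was -1.03 ± 0.27 (fold 0.490, interval 0.330 to 0.728, unadjusted p = 0.00128, edgeR adjusted p = 0.0799). Ptges3 had -0.34 ± 0.10 with an unadjusted p of 0.00346 (edgeR adjusted p = 0.117), Fkbp4 -0.33 ± 0.14 (edgeR adjusted p = 0.220) and Nr3c1 -0.21 ± 0.09 (edgeR adjusted p = 0.223). Nr3c2 had 0.35 ± 0.20 (edgeR adjusted p = 0.330). edgeR called 0 of the 6 among 76 genes, 0.511% of those tested, and 2862 genes had an unadjusted p under 0.05. Of the same 14884 genes, DESeq2 called 455, among them Fkbp5 (adjusted p = 0.0134), Hsd11b1 (0.0141) and Ptges3 (0.0498). limma voom called 3290 of the 14884, with all 6 members among them, so its calls stand against a far larger background than those of edgeR. With edgeR, Fkbp5 passed when control male 1 was left out, and Hsd11b1 passed when control female 5 or susceptible male 5 was.

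The Fkbp5 difference rested in part on single libraries. Without control male 5 it was 0.59, and without the 7 libraries over 100 CPM of Ttr it was 0.51. Control male 5 also had the lowest summed level of 12 oligodendrocyte genes, 3827 CPM. That sum ranged from 3827 to 7167 CPM in control males and from 6197 to 10529 CPM in control females. With the mean log2 CPM of the oligodendrocyte list as a covariate, added after seeing the data, the Fkbp5 difference was 0.0068.

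The Hsd11b1 difference moved with other libraries and another list. Without the 5 libraries over 1 CPM of Pmch, 3 of them control females, it was -0.46, and without those over 100 CPM of Ttr it was -0.71. The mean log2 CPM of 11 astrocyte genes was 7.65 ± 0.06 in control males and 7.86 ± 0.11 in control females (SD, n = 5 each). Their summed level was 4634 to 5979 CPM in control males and 4958 to 5820 CPM in control females, and these ranges overlapped. With the astrocyte score as a covariate the Hsd11b1 difference was -0.29, with the oligodendrocyte score -0.40 and with the thalamic score -0.59. None of the defining markers of these lists was at 0 in a group.

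Among susceptible mice, the same signs were seen with wider overlap. Fkbp5 was 36.4 to 68.0 CPM in susceptible males and 28.9 to 46.8 CPM in susceptible females, a log2 fold change of 0.63 ± 0.27 (unadjusted p = 0.0344, edgeR adjusted p = 0.774). Hsd11b1 was 3.71 to 10.2 CPM in susceptible males and 7.46 to 13.8 CPM in susceptible females, a log2 fold change of -0.73 ± 0.27 (unadjusted p = 0.0148, edgeR adjusted p = 0.751). Only susceptible male 5 reached the female range of Hsd11b1, and without it the difference was -1.05. The other estimates were -0.13 ± 0.09 for Nr3c1, -0.03 ± 0.20 for Nr3c2, -0.04 ± 0.14 for Fkbp4 and -0.13 ± 0.10 for Ptges3. None of the 6 was called, against 7 genes (0.047%) over the whole table, of which 6 were higher in males, and none separated the sexes, which 0.779% of all genes did (0.383% with males higher, 0.396% with males lower). At an unadjusted p under 0.05 stood 935 genes, and DESeq2 and limma voom, with 15 and 11 genes called, called none of the 6.

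The male minus female estimates of control and susceptible mice were also averaged in the same fit, a contrast added after the data had been seen. Over 10 male and 10 female libraries Hsd11b1 was 5.56 ± 1.92 CPM in males and 10.3 ± 3.04 CPM in females (SD, n = 10 each). Its mean log2 fold change was -0.88 ± 0.19, a fold of 0.543 with a 95% interval of 0.411 to 0.719. It passed the threshold (edgeR adjusted p = 0.0434) and was the only one of the 6 to do so, where 0.511% of all genes passed. The call was lost without the libraries over 1 CPM of Pmch (-0.78, adjusted p = 0.124), without those over 100 CPM of Ttr (-0.75, adjusted p = 0.195) and with the astrocyte score (-0.44, adjusted p = 0.387) or the oligodendrocyte score (-0.56, adjusted p = 0.281) as a covariate. It was kept with the thalamic score (-0.65, adjusted p = 0.0398). It passed in 7 of the 20 fits that each left out 1 library: control male 4, susceptible male 5, control females 4 and 5, or susceptible females 2, 4 and 5. Leaving out any other single library lost the call, and over the 20 fits the estimate ranged from -1.04 to -0.79 and the adjusted p from 0.00525 to 0.0989.

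Fkbp5 in the same average was 59.7 ± 28.0 CPM in males and 33.8 ± 5.48 CPM in females (SD, n = 10 each), a log2 fold change of 0.82 ± 0.19 (edgeR adjusted p = 0.0647). The DESeq2 Wald test gave 0.82 with an adjusted p of 0.00321 and limma voom 0.62 with an adjusted p of 0.0266. The edgeR call appeared when control male 1, control male 5 or susceptible female 5 was left out (adjusted p from 0.0416 to 0.127 over the 20 such fits). Without control male 5 the edgeR estimate was 0.61 and with the oligodendrocyte score as a covariate it was 0.32. Ptges3 had -0.24 ± 0.07 (edgeR adjusted p = 0.142), Nr3c1 -0.17 ± 0.06 (edgeR adjusted p = 0.212), Fkbp4 -0.19 ± 0.10 (edgeR adjusted p = 0.359) and Nr3c2 0.16 ± 0.14 (edgeR adjusted p = 0.579).

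Ratios of 2 genes within a library do not depend on how libraries are scaled. The ratio of Nr3c2 to Nr3c1, the balance of the receptors, was below 1 in all 20 libraries when expressed per kilobase. It ranged from 0.427 to 0.699 in susceptible males, 0.442 to 0.866 in control males, 0.347 to 0.742 in susceptible females and 0.315 to 0.689 in control females. The 4 ranges overlapped, but 3 of the 5 control females lay below all control males and 2 control males lay above all control females. Mean log2 ratios differed by 0.33 between susceptible and control females (exact 2-sided permutation p = 0.262, n = 5 each) and by -0.13 between susceptible and control males (exact permutation p = 0.579). Between control males and control females the difference was 0.57 (exact permutation p = 0.0714, adjusted p = 0.190 over 8 ratio tests).

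The ratio of Fkbp5 to Fkbp4, the FKBP pair that competes for the receptor complex, was 0.0805 to 0.137 in susceptible males and 0.0870 to 0.415 in control males, per kilobase. In females it was 0.0506 to 0.127 in susceptible and 0.0459 to 0.0851 in control mice. All control males lay above all control females, and the gap between the nearest libraries was narrow. The log2 ratio differed by 1.18 between control males and control females (exact 2-sided permutation p = 0.00794, n = 5 each, the smallest p this design allows; adjusted p = 0.0635) and by 0.63 between susceptible males and females (exact permutation p = 0.0635, adjusted p = 0.190). With stress it differed by 0.19 in females (exact permutation p = 0.556) and by -0.36 in males (exact permutation p = 0.540). None of the 8 ratio tests passed after adjustment.

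**Figure D4:**
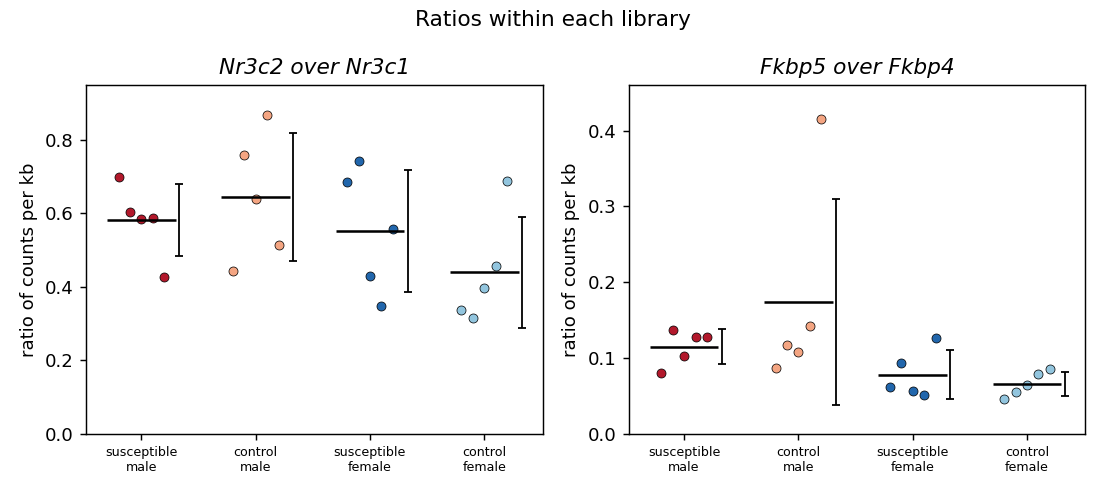
Ratio of counts per kilobase in each library for Nr3c2 over Nr3c1 and for Fkbp5 over Fkbp4, with group mean (line) and SD (bar), n = 5 libraries per group. Nr3c2 stays below Nr3c1 in all libraries, and Fkbp5 over Fkbp4 is 0.0870 to 0.415 in control males and 0.0459 to 0.0851 in control females.

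Across libraries the levels of these genes varied with markers of particular cell types and regions. Each gene was correlated on log2 CPM with the other members, with 6 glucocorticoid target genes and with the mean of each cell type list, 117 relations in all, of which 33 passed a permutation test after adjustment. With group means subtracted 20 passed, without the 2 libraries farthest on the x measure 21, and without the libraries over 100 CPM of Ttr 11. How many other genes would pass against the same lists was not counted. The counts here and by list therefore do not set these genes apart from others. The 20 libraries include 4 groups, so values within each sex are given beside the pooled ones.

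Nr3c2 gave the strongest relation of the 117. Against the list of hypothalamic peptide genes its Pearson r was -0.88 and its Spearman rho -0.83 (n = 20 libraries; permutation adjusted p = 0.00117 for both, from the smallest p the permutations can give). It was -0.84 without the 2 farthest libraries, -0.80 in the 10 male and -0.91 in the 10 female libraries. Nr3c2 was 32.96 to 43.8 CPM in the 5 libraries with Pmch above 1 CPM and 44.1 to 72.5 CPM in the other 15, with no overlap. The nearest values were close, and the ranges of each of the other members overlapped in this split. The share of all genes that it separates was not counted, so the separation is not shown to be particular to Nr3c2. Those 5 libraries were defined from the data, so this split carries no test. Nr3c2 also moved with the striatal list (r = 0.76, rho = 0.79; permutation adjusted p = 0.00117 and 0.00273), with 0.59 in males and 0.80 in females. It moved against the thalamic list (r = -0.77, rho = -0.75; permutation adjusted p = 0.00184 and 0.00562), with -0.70 in males and -0.77 in females. Libraries with higher hypothalamic and thalamic markers thus held less Nr3c2, and those with higher striatal markers held more.

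Hsd11b1 moved with the astrocyte list (r = 0.77, rho = 0.76; permutation adjusted p = 0.00136 and 0.00526), with 0.67 without the 2 farthest libraries, 0.59 in males and 0.67 in females. It also moved with the thalamic list (r = 0.72, rho = 0.60; permutation adjusted p = 0.00297 and 0.0282; 0.61 without the 2 farthest), with 0.64 in males and 0.87 in females. Fkbp5 moved against the oligodendrocyte list (r = -0.82, rho = -0.74; permutation adjusted p = 0.00136 and 0.00652), with -0.81 in males and -0.72 in females. Without the 2 farthest libraries, control males 4 and 5, that r was -0.59 with an adjusted p of 0.0519, so the relation rested in part on them.

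Nr3c1 moved against the GABA neuron list of the subpallium (r = -0.76, rho = -0.64; permutation adjusted p = 0.00205 and 0.0215), with -0.32 in males and -0.81 in females. Ptges3 moved against the endothelial list (r = -0.78, rho = -0.63; permutation adjusted p = 0.00117 and 0.0220), with -0.71 in males and -0.68 in females. Fkbp4 moved against the striatal list (r = -0.73, rho = -0.71; permutation adjusted p = 0.00266 and 0.0107), with -0.28 in males and -0.89 in females, but r was -0.57 without the 2 farthest libraries (adjusted p = 0.0641). Fkbp4 also moved with the thalamic list (r = 0.71, rho = 0.70; permutation adjusted p = 0.00266 and 0.0107), with 0.52 in males and 0.77 in females, and with the hypothalamic list (r = 0.70, rho = 0.64; permutation adjusted p = 0.00297 and 0.0215), with 0.64 in males and 0.71 in females. The lists were shared between genes. Of the 11 lists, 6 passed for Fkbp4, 6 for Hsd11b1, 5 for Nr3c2, 2 for Fkbp5, 2 for Nr3c1 and 1 for Ptges3. The astrocyte list passed for Nr3c2 (r = -0.58), Fkbp5 (-0.55), Fkbp4 (0.56) and Hsd11b1 (0.77), and the oligodendrocyte list for Fkbp5 (-0.82), Fkbp4 (0.66) and Hsd11b1 (0.64). The share of cell composition in the group differences was not tested. The covariate fits given above are no such test, because their lists were added after the data were seen and correlate with these genes in the same libraries.

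**Figure D5:**
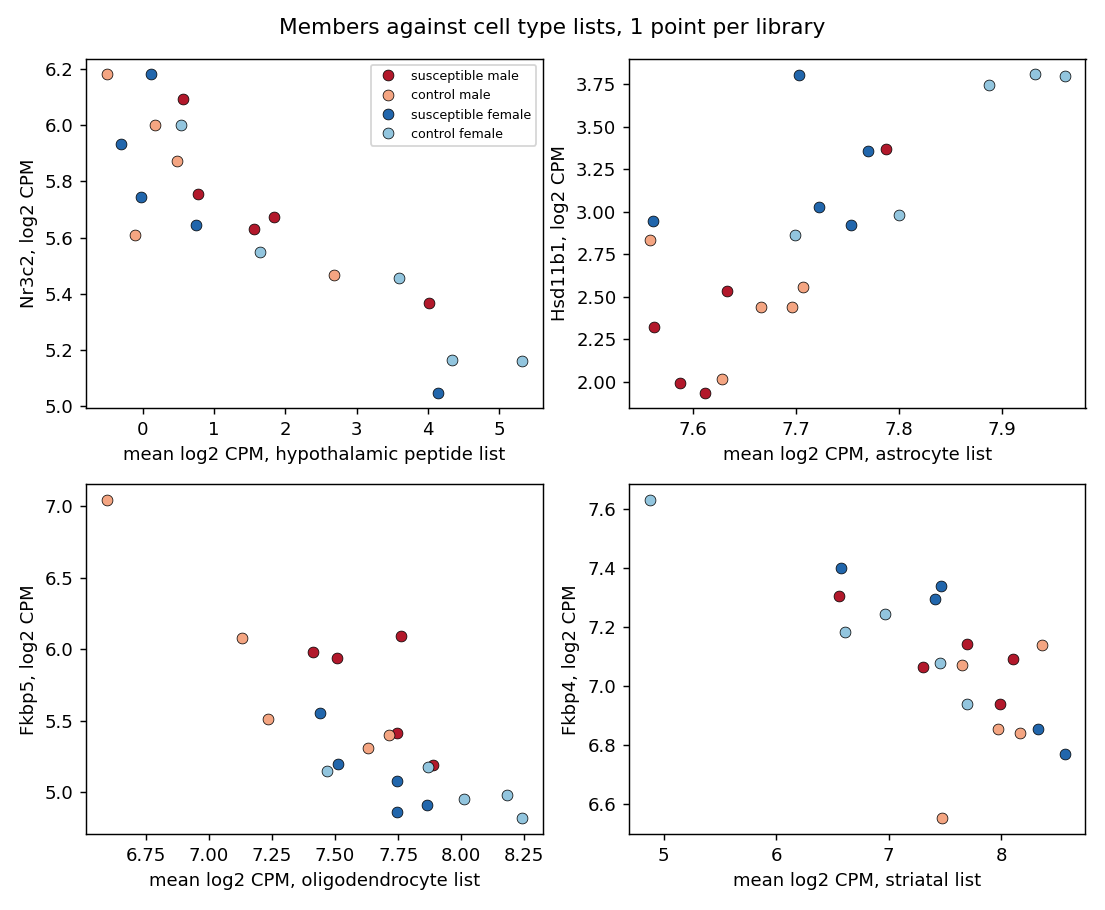
Log2 CPM of a gene against the mean log2 CPM of a cell type list, 1 point per library coloured by group: Nr3c2 with hypothalamic peptide genes, Hsd11b1 with astrocyte genes, Fkbp5 with oligodendrocyte genes and Fkbp4 with striatal genes. The Pearson r over 20 libraries are -0.88, 0.77, -0.82 and -0.73, and control male 5 is the point at the upper left of the Fkbp5 panel.

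Among the 6 genes, the co-chaperones Fkbp4 and Ptges3 moved together (r = 0.73, rho = 0.69; permutation adjusted p = 0.00266 and 0.0121), with 0.62 without the 2 farthest libraries, 0.84 in males and 0.56 in females. Fkbp4 also moved with Hsd11b1 (r = 0.65, rho = 0.62, permutation adjusted p = 0.0126 and 0.0230), with 0.56 in males and 0.66 in females. With group means subtracted that r was 0.65 (permutation adjusted p = 0.0165). Fkbp4 and Nr3c2 moved in opposite directions (r = -0.60, rho = -0.62; permutation adjusted p = 0.0248 and 0.0230), with -0.15 in males and -0.80 in females. With group means subtracted their r was -0.54 and did not pass (permutation adjusted p = 0.0635). Fkbp5 and Hsd11b1 had r = -0.60 over all libraries (rho = -0.66; permutation adjusted p = 0.0217 and 0.0172), with -0.07 in males and -0.64 in females, and -0.20 once group means were subtracted. Nr3c1 moved with Hsd11b1 (r = 0.58, rho = 0.62, permutation adjusted p = 0.0338 and 0.0230), with 0.16 in males and 0.47 in females, and 0.31 once group means were subtracted. The receptors Nr3c1 and Nr3c2 had r = -0.39, which did not pass (permutation adjusted p = 0.176), with -0.42 in males and -0.26 in females.

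Fkbp5 was set against 6 other genes that the glucocorticoid receptor induces, and 2 of the relations passed. It moved with Zbtb16, which encodes a zinc finger transcription factor (r = 0.75, rho = 0.58; permutation adjusted p = 0.00301 and 0.0353), with 0.73 in males and 0.09 in females. It also moved with Klf9, which encodes another such factor (r = 0.66, rho = 0.81; permutation adjusted p = 0.00885 and 0.00273), with 0.65 in males and 0.77 in females. The other 4 did not pass: r was 0.41 for Sgk1 (permutation adjusted p = 0.158), 0.33 for Errfi1 (0.225), 0.31 for Tsc22d3 (0.287) and 0.27 for Per1 (0.368). For Tsc22d3 it was 0.30 in males and -0.78 in females. Zbtb16 was 11.3, 35.6, 9.86, 52.1 and 74.4 CPM in susceptible males 1 to 5, against 12.1, 9.65, 9.74, 39.6 and 37.3 CPM in control males. In females it was 5.87 to 16.5 CPM in susceptible and 9.66 to 20.9 CPM in control libraries. The 5 male libraries with the highest Zbtb16 were also the 5 with the highest Fkbp5, namely susceptible males 2, 4 and 5 and control males 4 and 5. Both groups of males thus held libraries with high and with low levels of these targets. Fkbp4 moved against Per1, a clock gene that glucocorticoids also induce (r = -0.79, rho = -0.74; permutation adjusted p = 0.00117 and 0.00585), with -0.88 in males and -0.77 in females. Klf9 was not particular to Fkbp5. It also passed against Fkbp4 (r = -0.57, permutation adjusted p = 0.0338), with 0.12 in males and -0.81 in females. Nr3c2 passed with Per1 (r = 0.61, permutation adjusted p = 0.0250) and Klf9 (r = 0.55, permutation adjusted p = 0.0447).

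For each gene the 5 genes with the most similar pattern over the 20 libraries were listed among those with a mean of at least 5 CPM. For Fkbp5 these were Xdh (r = 0.90), Cdkn1a (0.88), Galnt15 (0.88), Osmr (0.86) and Fam214a (0.86). Cdkn1a, which encodes a cell cycle inhibitor, was 9.39, 24.8, 16.1, 27.5 and 39.3 CPM in susceptible males, against 12.4, 14.8, 15.8, 29.1 and 64.5 CPM in control males. Among males its highest values lay in the same 5 libraries as those of Fkbp5. Susceptible female 5, at 26.2 CPM of Cdkn1a, lay above susceptible male 2. For Fkbp4 they were Syngr3 (0.95), Stip1 (0.94), Acot7 (0.93), Hsp90aa1 (0.92) and Txnl4a (0.91). Hsp90aa1 encodes the inducible HSP90 and Stip1 the adaptor that hands clients to it. For Ptges3 they were Actr10 (0.93), Cacybp (0.91), Snx16 (0.89), Cept1 (0.89) and Spryd7 (0.88).

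For Nr3c2 the closest genes were Grm5 (r = 0.92), which encodes a metabotropic glutamate receptor, Sft2d2 (0.92), Smurf2 (0.92), Lzts1 (0.92) and Prmt8 (0.91). For Nr3c1 they were Osbpl1a (0.86), Deptor (0.83), Prickle1 (0.82), Trp53inp2 (0.81) and Pex5l (0.81). For Hsd11b1 they were Pla2g7 (0.89), Lhfpl2 (0.89), Tubg1 (0.89), Gdf11 (0.86) and Cxxc5 (0.86). These values describe the 20 libraries, which differ in the cell type lists as above, and carry no test.

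Other genes of the pathway were read from 5 lists. Of the HSP90 chaperone cycle all 17 genes were tested, and 0 passed with stress in either sex. Their median log2 fold change was 0.02 in females and 0.14 in males, against 0.01 and -0.01 over all genes. The smallest p-values were those of the co-chaperones Dnajb1 (0.25 ± 0.15) and Dnaja1 (0.12 ± 0.08) in females, and of St13 (0.22 ± 0.08) and Ppid (0.21 ± 0.07), which bind HSP70 and HSP90, in males. In males 13 of 17 estimates were positive.

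Of 16 receptor cofactor genes 0 passed, with medians of 0.01 in females and -0.08 in males. The smallest p-values were those of Hdac2 (0.19 ± 0.08), a deacetylase, and Crebbp (0.15 ± 0.07), an acetyltransferase, in females, and of the coactivators Carm1 (-0.19 ± 0.06) and Ncoa6 (-0.19 ± 0.09) in males. Of 13 genes of steroid handling 9 were tested and 0 passed, with medians of 0.03 in females and -0.12 in males. Srd5a1, which encodes a steroid reductase, had -0.26 ± 0.15 in females and 0.39 ± 0.15 in males. Akr1c14 had 0.53 ± 0.32 in females. H6pd, which supplies the cofactor that lets the Hsd11b1 enzyme make corticosterone, had -0.33 ± 0.16 in males. Of 7 other steroid receptor family genes 0 passed, with medians of -0.19 in females and 0.20 in males. Estrogen receptor genes had -0.83 ± 0.52 (Esr2) in females and 0.69 ± 0.46 (Esr1) in males, and the orphan receptor Esrrb had -0.71 ± 0.48 in females.

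Of 16 glucocorticoid target genes 0 passed with stress in either sex, with medians of 0.13 in females and -0.01 in males. Sgk1, a kinase gene, had the smallest p of the list in both sexes, with log2 fold changes of 0.48 ± 0.13 in females (edgeR adjusted p = 0.774) and 0.49 ± 0.13 in males (edgeR adjusted p = 0.405). Per1 had 0.32 ± 0.18 in females and Tsc22d3, which encodes the anti-inflammatory protein GILZ, 0.51 ± 0.19 in males. Fkbp5 had 0.12 in females and -0.27 in males, as given above, and its difference from Sgk1 was not tested. Between the sexes 15 of 16 target estimates were positive in control mice (median 0.36, against -0.0026 over all genes), and 1 passed. Of all genes 0.511% passed in that comparison, and the same share passed in the average over both conditions. In susceptible mice 11 of 16 were positive (median 0.22, against -0.02 over all genes), and 0 passed. The target that passed in control mice was Nfkbia, the NF-kappaB inhibitor gene, with 0.58 ± 0.10 in control males over control females (edgeR adjusted p = 0.0162), and Nfkbia and Sgk1 (0.47 ± 0.09, edgeR adjusted p = 0.0236) passed in the average over both conditions. In 2 cell type lists every estimate had the same sign in control mice. All 10 endothelial genes had positive estimates, 3 of which passed (median 0.51), with a summed level of 187 to 348 CPM in control males and 189 to 214 CPM in control females. All 14 striatal genes were also positive, 0 of which passed (median 0.98), with 3451 to 6431 CPM in control males and 761 to 3953 CPM in control females. Of the subpallial GABA neuron list 11 of 13 estimates were positive (median 0.32), and the remaining lists had negative medians. No gene of these lists was at 0 in a group, and their part in the target estimates was not tested. Fkbp5 had the same sign as Nfkbia and Sgk1, and Hsd11b1, Fkbp4, Ptges3 and Nr3c1 the opposite one.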

How the data were processed

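Polyadenylated RNA of BNST tissue was sequenced in paired reads, per the labels' protocols, and the authors deposited raw counts of reads per gene, 1 table a library. The submitters' processing notes name HISAT2, featureCounts and mm10. The sources used here give no annotation, strand setting or version, so reads that overlapping genes share stay mixed. Titles of the samples gave the groups. The 6 genes, the lists and the tests were chosen with earlier results of these data known.

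The tables list 19214 genes, of which 19206 matched GENCODE M21 by identifier. The 8 unmatched genes held 0.0026% of counts. Totals of 14637636 to 17862840 counts per library limit the precision. No pair of the 20 libraries agreed within sampling noise (chi-square test of counts). Counts were scaled by TMM, filtered with filterByExpr to 14884 genes, and tested with edgeR 4.0.16 (R 4.3.3; quasi-likelihood, robust) in 1 fit of the 4 groups. CPM use TMM-scaled library sizes. The Benjamini-Hochberg adjustment ran over all genes tested, and the threshold was 0.05. Standard errors were derived from the F statistic as |log2 fold change| / sqrt(F).

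Ratios were log2 of counts with 0.5 added. Correlations used 100000 permutations of log2 CPM (prior count 2), adjusted over 117 relations. From each pathway list the 2 genes with the smallest p in each stress comparison are named, except that Esr1 alone is named from the steroid receptor family in males. For each of the 6 genes the 5 most correlated are named. Sgk1 and Nfkbia between the sexes, Zbtb16 and Cdkn1a per library were picked after their values were seen. Promoter windows are RefSeq sequences (GRCm38.p6).

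The edgeR code was tested on simulated data with known changes. Alternatives were DESeq2 size factors, plain library sizes, the DESeq2 1.42.0 Wald test, limma 3.58.1 voom with quality weights, no filter, at least 1 CPM in 5 libraries, a replicate block, 1 surrogate variable (sva 3.50.0), 2 groups alone, leaving out libraries over 100 CPM of Ttr or 1 CPM of Pmch, and leaving out each library. Cell type scores as covariates and the mean sex contrast were added after the data were seen.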

Additional observations from a re-analysis of the deposited data

How the results depend on the processing

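The members' calls with stress stood at 0 under the alternatives in both sexes, except that limma voom called 1 member (Ptges3) in males. Genes called with stress in males were 13 by DESeq2 and 671 by limma voom, DESeq2 called 7 in the mean stress effect, and with each library left out in turn 0 to 2 genes were called in females. The cause was not tested for any change below, except that a fit on fewer libraries or 2 groups alone uses less data.

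Between the sexes, members called in control mice were 3 by DESeq2, 6 by limma voom, 1 with the replicate block and 0 to 1 with a library left out. Genes called there were 455 by DESeq2, 3290 by limma voom, 38 with no filter, 15 with 1 surrogate variable, 19 with 2 groups alone, 5 without the Ttr libraries, 5 without the Pmch libraries, 15, 5 and 9 with the thalamic, astrocyte and oligodendrocyte scores, and 6 to 458 with a library left out (lowest without control female 3, highest without control female 5). In susceptible mice they were 15 by DESeq2, 11 by limma voom, 4 with the block, 4 with 2 groups alone, 4 without the Ttr libraries, 13 without the Pmch libraries, 12 with the thalamic score and 6 to 20 with a library left out. In the mean sex effect members called were 2 by DESeq2, 4 by limma voom, 0 without the Ttr or the Pmch libraries, 0 with the astrocyte or oligodendrocyte score and 0 to 2 with a library left out. Genes called there were 327, 1254, 13, 8, 10 and 20 in the same order of settings, and 38 to 145 with a library left out.

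Signs turned only among estimates that did not pass. With 1 surrogate variable, stress in females gave 0.047 for Fkbp4 and 0.023 for Hsd11b1, stress in males -0.023 for Nr3c1, 0.012 for Nr3c2 and -0.18 for Hsd11b1, and the difference between sexes 0.20 for Hsd11b1. limma voom gave 0.068 for Fkbp5 and -0.24 for Hsd11b1 with stress in males and 0.0076 for Nr3c2 between susceptible males and females. Without the Ttr libraries, stress in females gave 0.0054 for Nr3c1 and -0.015 for Ptges3, stress in males -0.40 for Hsd11b1, the difference 0.084 for Hsd11b1, and sex in susceptible mice 0.049 for Nr3c2 and 0.022 for Fkbp4. Without the Pmch libraries, stress in females gave 0.049 for Nr3c1, 0.080 for Fkbp4 and 0.39 for Hsd11b1, stress in males -0.0058 for Nr3c1 and -0.26 for Hsd11b1, the difference 0.055 for Nr3c1 and 0.65 for Hsd11b1, the mean sex effect -0.023 for Nr3c2, and the log2 ratio of Fkbp5 to Fkbp4 with stress in females -0.035. With the astrocyte score, Nr3c2 had -0.023 between the sexes in control mice and -0.096 in the mean sex effect, and Fkbp4 had 0.060 in susceptible mice and 0.027 in the mean.

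With a library left out in turn, stress in females ranged from -0.0041 to 0.18 for Fkbp5 and -0.15 to 0.040 for Fkbp4, and stress in males from -0.024 to 0.039 for Nr3c1, -0.40 to 0.16 for Fkbp5 and -0.27 to 0.17 for Hsd11b1. The difference ranged from -0.037 to 0.52 for Fkbp5 and -0.48 to 0.026 for Hsd11b1, and sex in susceptible mice from -0.17 to 0.099 for Nr3c2 and -0.12 to 0.025 for Fkbp4. The log2 ratio of Fkbp5 to Fkbp4 ranged from -0.012 to 0.32 with stress in females and -0.55 to 0.016 in males, and that of Nr3c2 to Nr3c1 from -0.042 to 0.23 between susceptible males and females.

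Replicate numbers did not pair the samples: deviations of same-numbered libraries correlated between -0.58 and 0.64. With the numbers as a block, Ptges3 was called between control males and control females (-0.35, adjusted p = 0.0460), Fkbp5 was called in the mean sex effect (0.75, adjusted p = 0.0278) and Hsd11b1 was not (-0.85, adjusted p = 0.0988). No other member's call moved. Correlations that passed numbered 20 with group means subtracted, 21 without the 2 farthest libraries and 11 without the Ttr libraries. Hsd11b1, with 60 to 243 counts, had the least depth of the 6.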
